A study of Mus musculus with 4 samples.

Results

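The enzymes that burn fatty acids in mitochondria and peroxisomes, with the nuclear receptor PPAR alpha and a group of its target genes, were examined in mouse kidney after bile duct ligation. The set held 34 genes, measured by the non-control array probes whose RefSeq accession belongs to a listed gene. Those well above background on both arrays of a group were kept, which gave 41 probes. All 34 genes were among the 24031 features tested, a feature being a named gene or an accession without a gene name. The 41 kept probes were well above background on every one of the 4 arrays, which the rule for keeping them partly ensured. Bile duct ligation (BDL) blocks the flow of bile to the gut by tying its main duct, a surgical model of cholestasis, and the sham group is its operated control. Kidneys were taken 2 weeks after the operation. Total RNA of 2 BDL and 2 sham kidney samples was labelled with Cy3 and hybridised, 1 sample to an array. The series' design calls the replicates biological, and strain, sex, age and whether animals were pooled are not given in the labels used here. The title of the series concerns how the cholestatic kidney handles drugs, and the arrays compare BDL with sham kidneys.

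Fatty acids are the main fuel of the proximal tubule. A long-chain fatty acid is joined to coenzyme A, carried into the mitochondrion as an acyl-carnitine, and shortened there in cycles of dehydrogenation, hydration, a second oxidation and thiolysis. Very long and branched chains are first shortened in peroxisomes, which pass the products on to mitochondria. PPAR alpha is a nuclear receptor that binds fatty acids and, with its partner RXR, switches on many of these genes in liver and kidney, for example in fasting.

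Every level below is a log2 signal after subtraction of the array's own 75th percentile, so a step of 1 is a 2-fold change. Levels are compared only between arrays for the same probe, never between genes. Differences are BDL minus sham, with a standard error (SE) and a 95% interval from limma, a linear model that shares information on the spread across all features. No feature of the 24031 passed an adjusted p of 0.05 (0%, smallest adjusted p = 0.197), and 0 of the 34 members did, with adjusted p-values from 0.758 to 0.991. At an unadjusted p under 0.05 limma gave 7 members, 6 higher and 1 lower in BDL. That is 20.6% of the members, where 5.62% of all features had such a p (2.58% higher and 3.04% lower). No test was made of the members as a list.

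Levels in BDL kidneys were more often higher than lower. Of the 34 genes, 25 had a higher mean in BDL, where 48.5% of all features did, and the median difference over the members was 0.20 against -0.01 over all features. The groups did not overlap in 20 members, 58.8% where 36.6% of all features were separate in this way. BDL was the upper group in 17 of them, 50% of the members where 17.3% of all features did so. It was the lower group in 3, 8.82% of the members where 19.3% of all features did so. Most differences were small, with 25 of the 34 (73.5%) under 0.5 in size, although 82.2% of all features were. The 6 genes with the clearest higher level were Acot3, Angptl4, Decr2, Acaa2, Slc25a20 and Acaa1b, and the clearest lower level was that of Crot. The median over the members was 0.30 without sham replicate 1 and 0.09 without sham replicate 2. Without sham replicate 1 the number of members with an unadjusted p under 0.05 was 3, or 8.82% where 6.6% of all features had one, which is near the background. Without BDL replicate 1 it was also 3, where 3.52% of all features had one. Separation is easier with fewer arrays. The number wholly below sham was 8 without sham replicate 2 (23.5% of members, 41.4% of all features), 7 without BDL replicate 1 (20.6% and 31.9%) and 5 without BDL replicate 2 (14.7% and 34.1%).

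**Figure D1:**
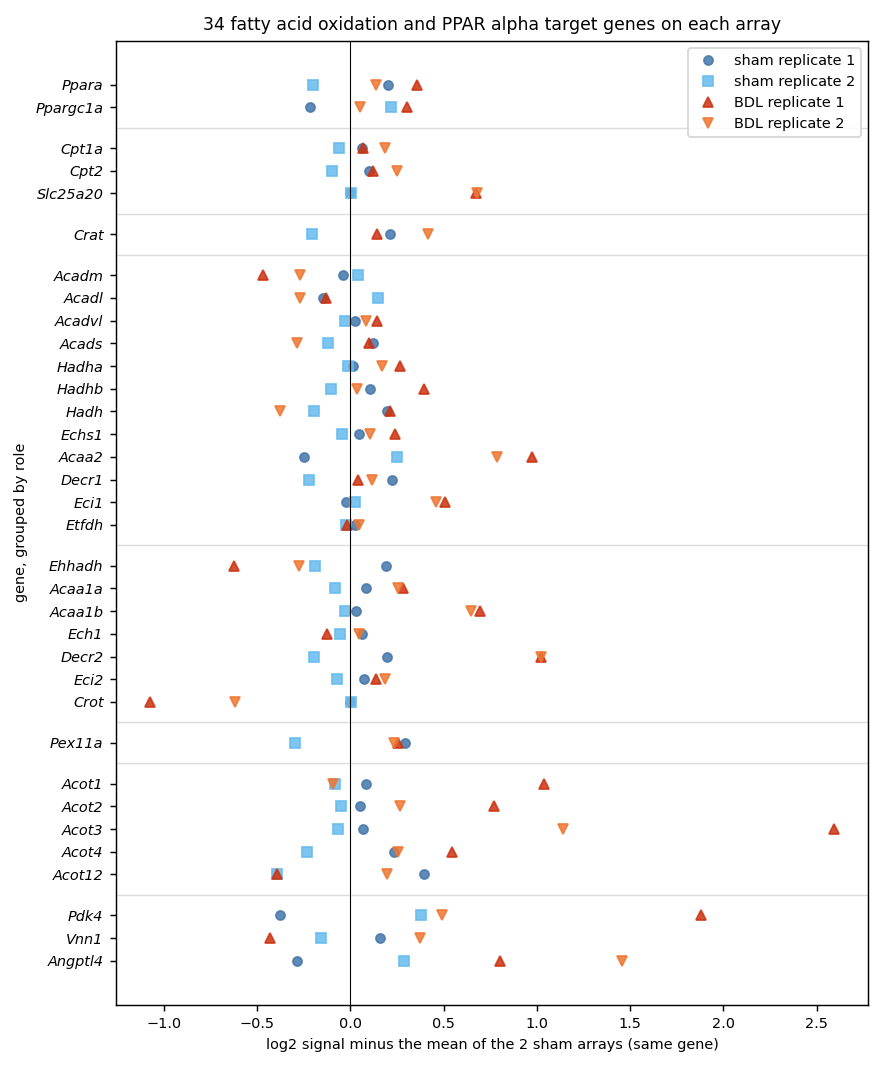
Level of each of the 34 genes on each of the 4 arrays, as log2 signal minus the mean of the 2 sham arrays for that gene (horizontal axis), with genes grouped by role (vertical axis). The BDL arrays lie wholly to the right of the sham arrays in 17 genes, with Acot3, Pdk4 and Angptl4 among the farthest, and to the left in 3, with Crot the farthest.

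The 4 arrays differed in other cell types as well. The 16 proximal tubule markers, the cell type that carries most fatty acid oxidation in kidney, were well above background on all arrays. Their summed signal ran from 2558 to 3028 times the 75th percentile signal in sham and from 2433 to 2540 in BDL, and 11 of the 16 were lower in BDL. In whole-kidney RNA, fewer cells of a type and less RNA per cell cannot be told apart. BDL replicate 1 carried markers of fat. Of 10 adipocyte markers, 9 were well above background there, against 5 in BDL replicate 2 and 8 and 7 on the sham arrays. Their summed signal reached 201 in BDL replicate 1, against 15.5 and 30.1 in sham and 14.5 in the other BDL array. The brown fat gene Ucp1 read -6.37 and -4.62 in sham, 0.42 in BDL replicate 1 and -7.26 in the other BDL array (well above background on 1 array of each group), and Cidea, Adipoq and Cfd were also highest on that same BDL array. Urothelial markers were also highest in BDL replicate 1, with a summed signal of 77.6 against 7.85 to 15.7 on the other arrays. Erythroid markers summed to 1217 there, against 540 to 766 elsewhere, and all 10 injury markers had a higher mean in BDL, with sums of 88.6 and 125 in sham and 136 and 196 in BDL. Sham replicate 1 stood apart in interferon response genes, with a summed signal of 30.4 against 7.05 to 11.7 on the others, and in macrophage genes, with 263 against 52.3 to 61.6. Most of that macrophage sum came from Cd74 alone, which read 7.72 there against 4.17 to 4.37 on the others. The median level of the macrophage genes was 1.31 there, against -0.20 in sham replicate 2 and 0.66 and 0.78 in BDL. The interferon genes also differed between the groups, with a median of -1.57. Of 10, 9 were wholly lower in BDL, where 19.3% of all features were. At an unadjusted limma p under 0.05, 5 were lower, where 3.04% of all features were. T and NK cell markers and liver markers were each lower in 6 of 7, 4 of them without overlap. Podocyte markers were higher in BDL in 8 of 8, 7 of them without overlap, with a median of 0.53. Their sums were 35.3 and 28.7 in sham and 60.3 and 48.8 in BDL. Collecting duct markers were also higher in 8 of 8, 3 of them without overlap, with a median of 0.36. Of all features, 17.3% were wholly above sham. Brown fat is itself rich in fatty acid oxidation enzymes, and values without BDL replicate 1 are given where it moved a member by over 1.5 times and for the members that differed most. The part of these cell types in the results was not tested.

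**Figure D2:**
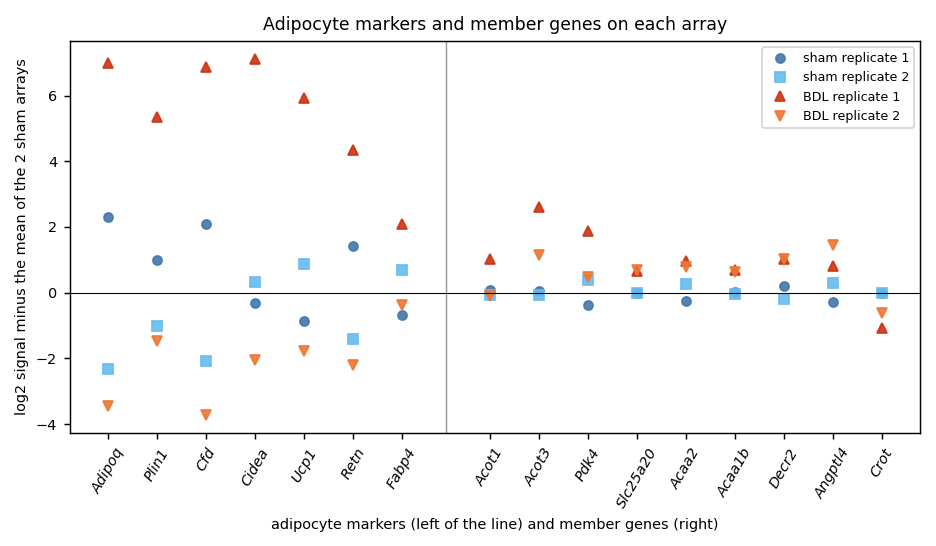
Log2 signal minus the mean of the 2 sham arrays, for 7 adipocyte markers (left of the line) and 9 member genes (right), with 1 point per array. BDL replicate 1 is highest in all 7 markers and in Acot1, Acot3, Pdk4 and Acaa2, while Slc25a20, Acaa1b and Decr2 have nearly the same value on both BDL arrays. Of the 10 listed markers, Lep, Lipe and Pck2 are not drawn. Lep and Lipe are also highest in BDL replicate 1, with Lep not well above background on any array. Pck2 is not, at -3.23 there against -3.20 and -3.29 in sham and -3.41 in BDL replicate 2.

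The regulators differed little. Ppara, the receptor itself, read 4.73 and 4.33 in sham and 4.89 and 4.67 in BDL. Sham replicate 1 lay between the BDL values, so the groups overlapped. The difference was 0.25 (SE 0.24, 95% interval -0.39 to 0.88, limma adjusted p = 0.90). It was 0.45 without sham replicate 1, 0.05 without sham replicate 2 and 0.14 without BDL replicate 1, so single arrays decided its size. The other 2 probes of Ppara gave 0.44 and 0.33, without overlap in both. Ppargc1a, a coactivator that drives mitochondrial biogenesis, read 3.25 and 3.68 in sham and 3.77 and 3.52 in BDL. Its groups overlapped, with a difference of 0.18 (SE 0.25, limma adjusted p = 0.925). Its other probe gave -0.13, so the probes disagreed in sign, and the first probe gave -0.04 without sham replicate 1, 0.39 without sham replicate 2, 0.05 without BDL replicate 1 and 0.30 without BDL replicate 2.

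Entry into mitochondria runs through the carnitine shuttle, and in all 3 of its members BDL lay above sham without overlap. The same held for 17.3% of all features. Slc25a20, the carrier that exchanges acyl-carnitine for carnitine across the inner membrane, read 0.49 and 0.50 in sham and 1.16 and 1.17 in BDL. The 2 arrays of each group nearly coincided and the groups were far apart by comparison. The level was 1.60-fold higher in BDL (0.68, SE 0.19, 95% interval 0.19 to 1.17, unadjusted p = 0.0173, limma adjusted p = 0.823). It stayed between 0.67 and 0.68 whichever array was left out. Cpt1a, the outer-membrane enzyme that sets the pace of long-chain entry, read 5.60 and 5.48 in sham and 5.61 and 5.73 in BDL. The gap between sham replicate 1 and BDL replicate 1 was far smaller than the standard deviation between repeated spots of this probe (0.05 to 0.12 on 1 array). Cpt1a differed by 0.13 (SE 0.19, 95% interval -0.39 to 0.64, limma adjusted p = 0.930), and its other probe by 0.12. Cpt2, which hands the chain back to coenzyme A inside the mitochondrion, differed by 0.19, and by 0.21 on its other probe. Without sham replicate 2 the values were 0.07 for Cpt1a and 0.09 for Cpt2, and without BDL replicate 2 they were 0.07 and 0.12. Crat, which moves acetyl groups between carnitine and coenzyme A in mitochondria and peroxisomes, read -0.93 and -1.35 in sham and -0.997 and -0.73 in BDL. The groups overlapped, with a difference of 0.28 (SE 0.25, limma adjusted p = 0.892) that was 0.49 without sham replicate 1 and 0.07 without sham replicate 2.

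Among the 12 enzymes of the mitochondrial spiral, 8 were higher and 4 lower in BDL, with a median of 0.09. Acaa2, a thiolase that releases acetyl-CoA at the end of a turn, differed most. It read 5.84 and 6.34 in sham and 7.06 and 6.87 in BDL, each array's value being a mean over 10 spots with a standard deviation of 0.04 to 0.07 between spots. Both BDL arrays were above both sham arrays, and the sham arrays were themselves farther apart than the spots were. Acaa2 was 1.84-fold higher in BDL (0.88, SE 0.26, 95% interval 0.20 to 1.56, unadjusted p = 0.0218, limma adjusted p = 0.860). Leaving out 1 array gave 0.63 to 1.13, and 0.78 without BDL replicate 1.

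Eci1, an isomerase needed for unsaturated chains, read 5.41 and 5.46 in sham and 5.94 and 5.89 in BDL. The groups were clearly separate, at 1.40-fold higher in BDL (0.48, SE 0.19, 95% interval -0.01 to 0.98, unadjusted p = 0.0531, limma adjusted p = 0.873). Leaving out 1 array gave 0.46 to 0.51. Decr1, the other auxiliary enzyme for unsaturated chains, differed by 0.08 on its brighter probe and by -0.10 on the other. The 2 subunits of the trifunctional protein, Hadha and Hadhb, differed by 0.22 each, without overlap for Hadha and with overlap for Hadhb. The value of Hadhb was far less steady, at 0.04 without BDL replicate 1 and 0.40 without BDL replicate 2, against 0.17 to 0.26 for Hadha whichever array was left out. Echs1, the short-chain hydratase, differed by 0.17 and Acadvl, the very-long-chain acyl-CoA dehydrogenase, by 0.11, both without overlap, and Echs1 by 0.10 without BDL replicate 1.

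The medium-chain dehydrogenase Acadm went the other way. It read 7.70 and 7.78 in sham and 7.28 and 7.47 in BDL, so both BDL arrays were lower. The level was 1.29-fold lower (-0.37, SE 0.20, 95% interval -0.89 to 0.16, limma adjusted p = 0.873). Acadl, the long-chain dehydrogenase, differed by -0.20, Acads, the short-chain one, by -0.10 and Hadh, the hydroxyacyl-CoA dehydrogenase for shorter chains, by -0.08, each with overlap. Etfdh, which passes the electrons of all these dehydrogenases to ubiquinone, differed by 0.02 (95% interval -0.48 to 0.51). The signs of Acads, Hadh, Etfdh and Decr1 turned when 1 array was left out. Without BDL replicate 1 these 4 stood at -0.29, -0.38, 0.05 and 0.11. Acadl was -0.35 without sham replicate 1 and -0.06 without sham replicate 2.

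The 7 peroxisomal enzymes spread more widely, from -0.85 to 1.02. Decr2, the peroxisomal dienoyl-CoA reductase, read 2.78 and 2.38 in sham and 3.60 and 3.60 in BDL. The BDL arrays agreed closely and both were above sham. Decr2 was 2.03-fold higher (1.02, SE 0.23, 95% interval 0.42 to 1.62, unadjusted p = 0.00795, limma adjusted p = 0.758), the smallest p among the members' brightest probes, and 1.02 without BDL replicate 1. Acaa1b, a peroxisomal thiolase, read 4.13 and 4.07 in sham and 4.795 and 4.75 in BDL. Its groups did not overlap, and it was 1.59-fold higher (0.67, SE 0.19, 95% interval 0.18 to 1.16, unadjusted p = 0.0186, limma adjusted p = 0.840) and 0.64 without BDL replicate 1. Acaa1a, its close relative, differed by 0.27 without overlap, and since the genes are near copies their probes may share targets.

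Crot, the peroxisomal carnitine octanoyltransferase that prepares shortened chains for export, had the most negative difference of the members. It read 5.78 and 5.79 in sham and 4.71 and 5.16 in BDL. Both BDL arrays were below both sham arrays, which nearly coincided. Crot was 1.80-fold lower (-0.85, SE 0.24, 95% interval -1.48 to -0.22, unadjusted p = 0.0191, limma adjusted p = 0.850). It was -0.62 without BDL replicate 1 and -1.07 without BDL replicate 2. Ehhadh, the bifunctional enzyme and a classical PPAR alpha target in liver, read 6.04 and 5.66 in sham and 5.22 and 5.57 in BDL. The groups did not overlap, although sham replicate 2 and BDL replicate 2 were close, and the difference was -0.45 (SE 0.25, 95% interval -1.12 to 0.22, limma adjusted p = 0.873). Without BDL replicate 1 it was -0.28. Eci2, an isomerase also found in mitochondria, differed by 0.16 without overlap and by 0.09 without sham replicate 2, and Ech1, a dienoyl-CoA isomerase of both organelles, by -0.04 with overlap and by 0.045 without BDL replicate 1. Pex11a, a membrane protein of peroxisome division, read 4.99 and 4.40 in sham and 4.95 and 4.93 in BDL. Only sham replicate 2 was low, and the difference of 0.24 (SE 0.27, limma adjusted p = 0.906) was -0.05 without that array.

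Mitochondrial and peroxisomal enzymes were then set side by side. The 15 mitochondrial enzymes and carriers had a median difference of 0.13, with 11 higher and 4 lower, and the 7 peroxisomal enzymes a median of 0.16, with 4 higher and 3 lower. The difference between the medians, mitochondrial minus peroxisomal, was -0.04. In size it was below 0.08, the pooled within-group standard deviation of the difference between the per-array medians given next. These are related measures and not the same one. After subtraction of each gene's mean over the 4 arrays, the mitochondrial median was -0.003 and -0.13 in sham and 0.15 and 0.04 in BDL. The peroxisomal median was -0.01 and -0.15 in sham and 0.06 and 0.10 in BDL. In both organelles the BDL arrays were above the sham arrays, with sham replicate 2 lowest. The spread between genes differed more than the medians did, with a standard deviation over genes of 0.32 for the mitochondrial and 0.64 for the peroxisomal enzymes. Members are not replicates, so these values carry no test.

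The choice of members mattered for this comparison. Without the carnitine shuttle and without Ech1 and Eci2, which occur in both organelles, the medians were 0.09 (12 genes) and 0.27 (5 genes), a difference of -0.17. With Acot2 added to the mitochondrial set and Acot3, Acot4 and Pex11a to the peroxisomal set they were 0.15 (16 genes) and 0.26 (10 genes). The mitochondrial median was 0.22 without sham replicate 1 and 0.09 without sham replicate 2. The peroxisomal median was 0.23 and 0.09 in the same order.

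**Figure D3:**
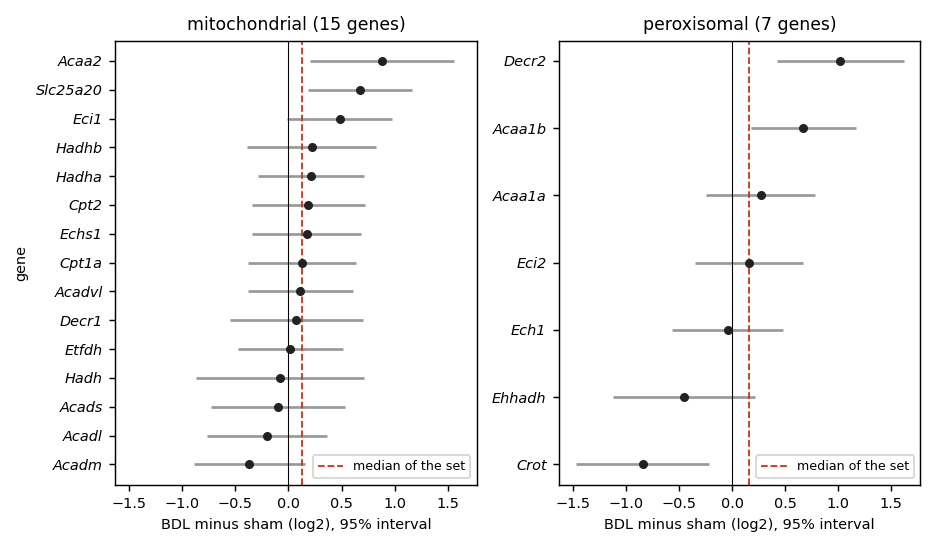
BDL minus sham difference (log2) of each mitochondrial (left) and peroxisomal (right) gene, ordered by size, with the 95% interval of limma as the bar and the median of the set as a dashed line. The medians, 0.13 and 0.16, nearly coincide, while the peroxisomal genes run from -0.85 for Crot to 1.02 for Decr2.

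Acyl-CoA thioesterases split acyl-CoA into a free fatty acid and coenzyme A, and Acot3 had the largest difference of all members. Acot3, a peroxisomal thioesterase, read 0.60 and 0.47 in sham and 3.13 and 1.67 in BDL. Both BDL arrays were above both sham arrays, and BDL replicate 1 was far above BDL replicate 2. Acot3 was 3.65-fold higher (1.87, SE 0.52, 95% interval 0.50 to 3.24, unadjusted p = 0.0181, limma adjusted p = 0.836). Its second probe read -2.15 and -3.05 in sham and 0.39 and -0.78 in BDL, a difference of 2.41 (unadjusted p = 0.00686). Acot3 differed by 1.14 without BDL replicate 1 and by 2.59 without BDL replicate 2. Each of these values rests on 1 BDL array, and the part of fat in them was not tested.

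The other thioesterases differed less. Acot2, the mitochondrial form, read -0.80 and -0.91 in sham and -0.08 and -0.59 in BDL. The groups did not overlap, with a difference of 0.52 (SE 0.25, limma adjusted p = 0.873) that was 0.27 without BDL replicate 1. Acot1, the cytosolic form, read 4.23 and 4.07 in sham and 5.19 and 4.06 in BDL. BDL replicate 1 alone was high, and the difference of 0.47 (SE 0.42, limma adjusted p = 0.892) was -0.09 without that array. Acot4, which like Acot3 lies in peroxisomes, differed by 0.40 without overlap, by 0.26 without BDL replicate 1 and by 0.17 without sham replicate 2. Acot12, a cytosolic enzyme that hydrolyses acetyl-CoA, read 5.13 and 4.34 in sham and 4.34 and 4.93 in BDL, with overlap and a difference of -0.10 (SE 0.37, limma adjusted p = 0.974) that was 0.19 without BDL replicate 1. Acot1, Acot2, Acot3 and Acot4 are close copies that lie side by side on chromosome 12, and their probes can share targets, so their separate values are uncertain.

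The last 3 members, further targets of PPAR alpha, act outside the oxidation spiral. Angptl4, a secreted inhibitor of lipoprotein lipase, read 3.49 and 4.06 in sham and 4.57 and 5.22 in BDL. The groups did not overlap, and here BDL replicate 2, the BDL array with the lower fat marker signal, was the higher. Angptl4 was 2.19-fold higher (1.13, SE 0.34, 95% interval 0.23 to 2.03, unadjusted p = 0.0243, limma adjusted p = 0.860), and the difference was 1.45 without BDL replicate 1 and 0.80 without BDL replicate 2. Pdk4, a kinase that shuts off pyruvate dehydrogenase and so favours fat over glucose as fuel, read -0.33 and 0.42 in sham and 1.92 and 0.54 in BDL. BDL replicate 1 was far above the rest, and BDL replicate 2 only just above sham replicate 2. Pdk4 differed by 1.18 (SE 0.55, 95% interval -0.28 to 2.65, limma adjusted p = 0.873), and by 0.49 without BDL replicate 1. Vnn1, a pantetheinase that recycles a precursor of coenzyme A, read 2.61 and 2.29 in sham and 2.02 and 2.83 in BDL. The BDL arrays lay on either side of the sham arrays, with a difference of -0.03 (SE 0.34, limma adjusted p = 0.991) that was 0.37 without BDL replicate 1.

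**Figure D4:**
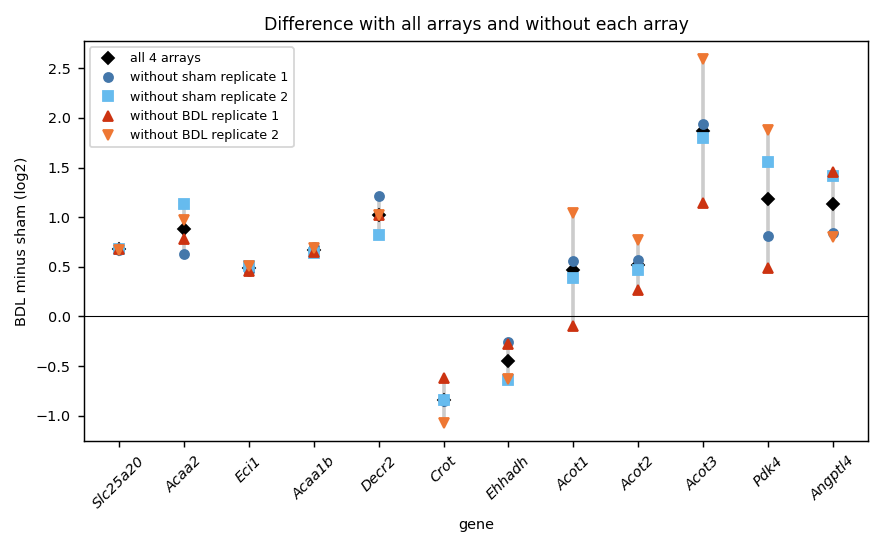
BDL minus sham difference (log2) of 12 members with all 4 arrays (black) and without each array in turn (coloured). Slc25a20, Eci1 and Acaa1b hardly move, while Acot1, Acot3 and Pdk4 are lowest without BDL replicate 1, where Acot1 stands below 0 at -0.09.

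Promoter sequences were on hand for 29 of the 34 members, as 250 bases before to 50 bases after the annotated start site in RefSeq (GRCm38.p6). Windows for Crat, Acaa2, Decr1, Vnn1 and Angptl4 were not used here. The classical PPAR alpha element is a direct repeat of the hexamer AGGTCA with 1 base of any kind between the copies. Searched on both strands, this repeat occurred in 0 of the 29 windows and in 0.0396% of 32851 windows of all genes. A looser repeat, built in the same way from AGGNCA and so including the full form, occurred in 0 and in 0.381%. The single hexamer AGGTCA, which also forms part of the full repeat, occurred in 7 member windows (24.1%) and in 16.3% of all. They were those of Cpt1a, Acadm, Acadvl, Echs1, Acot3, Acot4 and Acot12. The element TCAAGGTCA, bound by the estrogen-related receptors and ending in the hexamer, occurred in 0 and in 0.423%. The GC box GGGCGG occurred in 21 member windows (72.4%) against 35.7% of all, the CCAAT box in 13 (44.8%) against 37.4%, and the TATA motif TATAAA in 1 (3.45%) against 13.6%. These matches describe the windows, and a window without a match says nothing about sites farther away.

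The windows of 6 members are shown, chosen for their clear differences or as neighbouring genes. They run 5′ to 3′ along the gene in GRCm38.p6, with the AGGTCA hexamer, the CCAAT box and the GC box in capitals wherever they match on either strand. Acot3 and Acot4 are adjacent genes with an AGGTCA hexamer near the start site, 19 bases after it in Acot3 and 13 before it in Acot4, in both on the strand opposite to the gene, and their windows were identical at 50.5% of 366 aligned positions, close to the 47.9% to 52.0% of the other pairs among Acot1 to Acot4. The windows of Decr2, Slc25a20 and Crot, of which the first and the second were higher and the third lower in BDL, each hold GGGCGG and no AGGTCA. Hadha and Hadhb are divergent genes on chromosome 5, with start sites 273 bases apart and windows that share 228 bases. Without BDL replicate 1 they differed by 0.17 and 0.04. The window of Hadhb therefore holds most of that of Hadha.
Acot3 (chr12:84051894-84052193, plus strand): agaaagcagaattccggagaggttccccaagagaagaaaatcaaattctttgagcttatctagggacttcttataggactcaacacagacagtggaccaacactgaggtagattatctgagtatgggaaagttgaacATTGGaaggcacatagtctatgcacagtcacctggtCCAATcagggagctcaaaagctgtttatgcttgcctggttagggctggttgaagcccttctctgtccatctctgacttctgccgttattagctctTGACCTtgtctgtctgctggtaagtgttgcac
Acot4 (chr12:84038129-84038428, plus strand): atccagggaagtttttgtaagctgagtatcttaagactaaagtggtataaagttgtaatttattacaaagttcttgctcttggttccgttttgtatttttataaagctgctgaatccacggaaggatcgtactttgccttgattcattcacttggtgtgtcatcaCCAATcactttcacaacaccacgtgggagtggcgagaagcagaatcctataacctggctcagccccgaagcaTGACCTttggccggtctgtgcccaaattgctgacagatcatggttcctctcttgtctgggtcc
Decr2 (chr17:26090115-26090414, minus strand): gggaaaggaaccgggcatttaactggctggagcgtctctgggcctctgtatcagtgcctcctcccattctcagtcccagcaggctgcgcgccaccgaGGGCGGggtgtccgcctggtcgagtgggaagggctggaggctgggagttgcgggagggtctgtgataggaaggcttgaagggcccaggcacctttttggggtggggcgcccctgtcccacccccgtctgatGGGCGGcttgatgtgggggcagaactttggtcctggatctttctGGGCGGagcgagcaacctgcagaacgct
Crot (chr5:8997097-8997396, minus strand): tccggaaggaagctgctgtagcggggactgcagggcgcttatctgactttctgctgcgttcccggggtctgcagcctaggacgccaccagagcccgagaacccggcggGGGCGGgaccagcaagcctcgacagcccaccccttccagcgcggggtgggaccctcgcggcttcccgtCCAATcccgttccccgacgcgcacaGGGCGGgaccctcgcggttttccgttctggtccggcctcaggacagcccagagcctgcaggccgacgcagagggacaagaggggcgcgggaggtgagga
Slc25a20 (chr9:108661886-108662185, plus strand): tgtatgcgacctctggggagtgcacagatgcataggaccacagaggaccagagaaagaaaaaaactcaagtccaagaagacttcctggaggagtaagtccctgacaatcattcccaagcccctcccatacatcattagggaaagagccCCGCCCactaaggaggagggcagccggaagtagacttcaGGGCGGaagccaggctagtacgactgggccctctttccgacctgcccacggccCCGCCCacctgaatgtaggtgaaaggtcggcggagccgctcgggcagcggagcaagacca
Hadhb (chr5:30155003-30155302, plus strand): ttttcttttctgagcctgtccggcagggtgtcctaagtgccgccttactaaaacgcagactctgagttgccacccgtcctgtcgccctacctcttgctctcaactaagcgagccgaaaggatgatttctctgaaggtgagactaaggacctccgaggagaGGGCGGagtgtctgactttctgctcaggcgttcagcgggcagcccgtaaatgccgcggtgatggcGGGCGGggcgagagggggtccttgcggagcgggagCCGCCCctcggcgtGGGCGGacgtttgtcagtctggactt

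The wider pathway lay near the background of all features in its median and in the share of genes higher in BDL. Of 100 other measured genes of fatty acid metabolism, peroxisomes and PPAR signalling, 42 were higher and 58 lower in BDL, where 48.5% of all features were higher. Their median was -0.03 against -0.01, and 0 passed the threshold. At an unadjusted p under 0.05 limma gave 9 of the 100, 6 higher and 3 lower. Of all features, 5.62% had such a p, 2.58% higher and 3.04% lower. Uptake and activation genes had a median of -0.23 (4 of 14 higher). The long-chain acyl-CoA synthetases Acsl1 (1.75-fold, 0.81, SE 0.31), Acsl3 (0.75, SE 0.26) and Acsl4 (0.43, SE 0.19) were higher without overlap. Acsl5, of the same family, went the other way, 1.85-fold lower with overlap (-0.89, SE 0.49). Acsm3, a medium-chain synthetase, was 1.93-fold lower (-0.95, SE 0.30). The other mitochondrial oxidation genes had a median of -0.13 (6 of 16 higher) and ketone body genes -0.06 (1 of 4 higher).

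The remaining peroxisomal genes were lower in 11 of 15, with a median of -0.14. Acox2, the oxidase for branched chains and bile acid precursors, read 5.42 and 5.12 in sham and 4.42 and 3.82 in BDL. Both BDL arrays were lower, by 2.21-fold in the mean (-1.15, SE 0.29, unadjusted p = 0.0128, limma adjusted p = 0.773). Amacr, which racemises branched acyl-CoA, differed by -0.58 and Phyh, which starts the breakdown of phytanic acid, by -0.48, both without overlap. Hacl1, the lyase that acts after Phyh, was 1.76-fold higher (0.81, SE 0.22, unadjusted p = 0.0168, limma adjusted p = 0.812). The 15 genes of peroxisome assembly had a median of -0.08 and all were within 0.5.

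Further PPAR alpha targets were divided, 9 of 15 higher with a median of 0.13. Plin5, which ties lipid droplets to mitochondria, read 1.48 and 1.09 in sham and 2.53 and 2.39 in BDL. It was 2.27-fold higher without overlap (1.18, SE 0.23, unadjusted p = 0.00474, limma adjusted p = 0.672). Creb3l3, a transcription factor of lipid metabolism, read -4.94 and -4.69 in sham and -2.86 and -3.14 in BDL and was well above background on 1 of the 2 sham arrays (1.82, SE 0.22, unadjusted p = 0.000704, limma adjusted p = 0.414). Cyp4a14, a fatty acid hydroxylase strongly induced by PPAR alpha ligands, differed by 0.83 (SE 0.31) without overlap. Cyp4a12a, a male-typical hydroxylase, was 3.21-fold lower (-1.68, SE 0.49). Cidec, a fat droplet protein chosen after its values were seen, read -1.12 and -3.29 in sham and 3.66 and -7.29 in BDL (the latter not well above background), highest like the fat markers in BDL replicate 1. Nuclear receptors and coregulators had a median of 0.04, and the 7 fatty acid synthesis genes one of 0.38 (6 higher), with Fasn 1.55-fold higher (0.63, SE 0.20, unadjusted p = 0.0276, limma adjusted p = 0.860).

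Other mitochondrial genes give a scale for these values. TCA cycle genes had a median of -0.04 (4 of 17 higher) and subunits of oxidative phosphorylation one of -0.16, with 18 of 20 lower in BDL, against 4 of 15 lower among the mitochondrial oxidation members. Cox5b, a subunit of cytochrome oxidase, was 1.72-fold lower (-0.79, SE 0.21, limma adjusted p = 0.812). The difference between these lists was not tested.

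**Figure D5:**
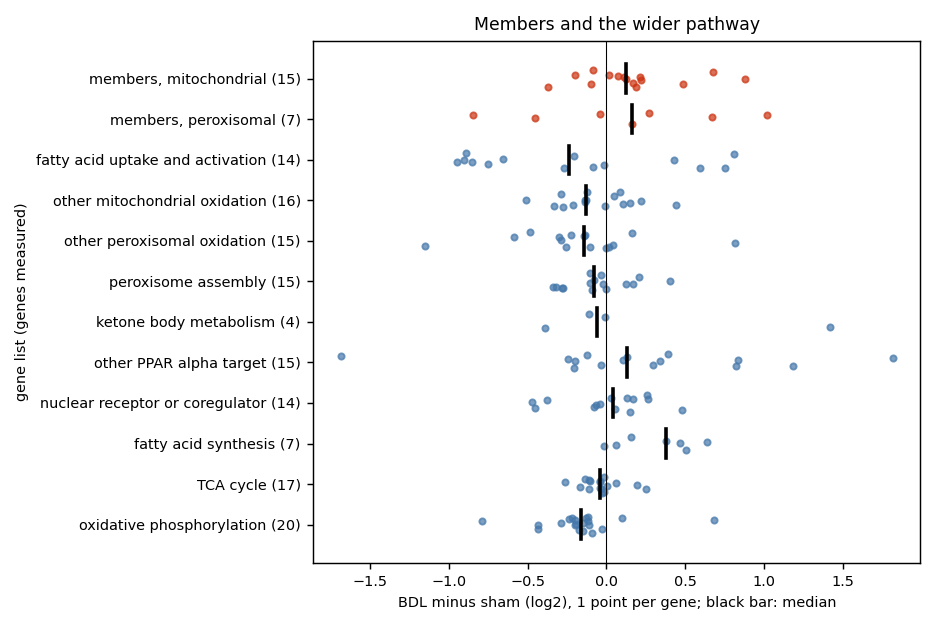
BDL minus sham difference (log2) of every measured gene in the members' mitochondrial and peroxisomal sets (red), the wider pathway lists and 2 lists of other mitochondrial genes (blue), with the median of each list as a black bar. The medians of the members' sets lie above 0, at 0.13 and 0.16, and that of oxidative phosphorylation below, at -0.16.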

How the data were processed

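Total RNA of mouse kidney was measured on 4 Agilent 1-colour arrays, 2 sham and 2 BDL, grouped by the sample titles. The submitters' processing notes name Agilent's Feature Extraction software, version 11.0.1.1. Per the file headers, its processed signal is an intensity with background subtracted and no scaling across arrays, and the deposited flags mark control, outlying and well-above-background spots. The authors' deposited value table is an intensity too, equal to that signal over a constant of each array (within 1% for all probes), and it held 40 of the 41 member probes, Pdk4 being the exception. Its constants were 709, 844, 739 and 939.8 for sham 1, sham 2, BDL 1 and BDL 2, with column medians of 0.328, 0.339, 0.329 and 0.330. The constants were close to the 75th percentile signals used here, which were 712, 849, 741 and 945 in the same order. How they were set stays unknown, but that table is scaled much like the values here.

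Control and outlier-flagged spots were left out (148 to 170 flagged spots an array), spots of a probe were averaged as log2, and the 75th percentile of the array was subtracted. Between 57.7% and 63.1% of spots were well above background and 0 were saturated. Accessions were matched without versions to RefSeq (GRCm38.p6, names only, since the array grid lists mm9), which named 27229 of 55668 probes. Probes well above background on both arrays of a group were kept (32267). The brightest probe stood for a gene, or for an accession without a gene name, giving 24031 features. limma 3.58.1 (R 4.3.3) was fitted with the operation as the only term and Benjamini-Hochberg adjustment over all features, and tested on simulated data. With 2 arrays a group, their number limits the precision. All arrays shared 1 slide and 1 scan time. Promoter windows were searched and aligned globally with Biopython 1.88.

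The members, lists and rules were chosen with earlier results of these data known. By rule, values on every array are given for members with an unadjusted p under 0.05, without overlap and at least 0.5 apart, extreme in their role, or named Ppara, Ppargc1a or Cpt1a, and up to 4 genes of another list by p. Eci1, Ehhadh, Acot1, Acsl5, Cidec and the fat markers were named outside it after their values were seen. Replicate numbers were not used as pairs, since the labels, which speak of pairs of RNA, name no shared litter, batch or day. Values of some listed genes are not reported here.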

Additional observations from a re-analysis of the deposited data

How the results depend on the processing

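No member, wider pathway gene or other feature passed the threshold in any of the 15 refits (smallest adjusted p of a member 0.372), so the counts of 0 carry no sign of stability. Of the 34 members, 24 kept their sign in every refit. The sign of Ech1 turned to 0.003 with normexp on the raw signal and to 0.002 with quantile normalization, and that of Decr1 to -0.013 with the mean of its probes. Leaving out 1 array gave ranges across 0 for Ppargc1a (-0.038 to 0.39), Acads (-0.29 to 0.10), Hadh (-0.38 to 0.21), Decr1 (-0.15 to 0.30), Etfdh (-0.017 to 0.048), Ech1 (-0.13 to 0.045), Pex11a (-0.05 to 0.54), Acot1 (-0.094 to 1.04), Acot12 (-0.49 to 0.29) and Vnn1 (-0.43 to 0.37). It gave mitochondrial medians of 0.085 to 0.22, peroxisomal medians of 0.09 to 0.23 and differences between them of -0.08 to 0.01. The number of members higher in BDL was then 22 to 29, of members wholly above sham 18 to 24 (28.7% to 35.7% of all features were), wholly below 4 to 8 (31.9% to 41.4%), and with an unadjusted p under 0.05 it was 3 to 5 (3.52% to 11.6%), counts added after seeing the data. Without the carnitine shuttle and the enzymes of both organelles the peroxisomal median moved to 0.27 and the difference to -0.17, and with thioesterases and Pex11a the peroxisomal median was 0.26. The replicate block left the medians at 0.13 and 0.16 and changed no call. Across features the deviations of same-numbered arrays from their group means correlated at 0.064. With so few arrays a group, this value cannot tell whether same-numbered samples shared a litter, batch or day. With all arrays of 1 slide, the slide block was not run. A fit with 1 array in a group assumes that this array varies like the others. The kept probes of the members were all well above background, which the rule for keeping them partly ensured.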
